A study of Oryza sativa with 12 samples.

Results

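In leaves of the rice line Nongken 58S, 74 array entries were listed as higher under short days (SD) than long days (LD) at the pistil/stamen primordium forming stage (P) and had no entry of the same gene at the glume primordium differentiation stage (G), which comes before it. Nongken 58S is a photoperiod-sensitive genic male sterile line, whose pollen is sterile when its panicles develop under LD and partly fertile under SD. RNA came from the second fully expanded leaf, taken at a single hour of the night, and 12 Affymetrix rice arrays were hybridised, 3 biological repeats in each of 4 groups. P-SSD plants had 10 h of light and 14 h of dark, P-SLD plants had 15 h of light and 9 h of dark, and G-SSD and G-SLD are the same treatments at the earlier stage. All plants were of the same mutant line and had SD treatment until their panicles formed secondary branches, when they were divided, so no group was free of SD and no fertile parent line was on these arrays. How many plants made up a repeat was not stated, so the spread between repeats may be partly technical.

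Of the 201 entries of the table deposited for P, 98 had a higher mean signal in SD and 82 of these had a locus that is not among the 105 entries of the table for G. After 8 genes that the choice leaves aside, with ratios of up to 65.1, 74 entries remained, and these are called the stage-P SD genes below. They came from 73 loci, because LOC_Os03g43720 had 2 entries. Loci were compared without their transcript suffix, and 9 entries carry a sequence accession in place of a locus, for which absence from the G table could be checked only under that name. Because the mean SD and LD signals at P chose these genes, their SD to LD ratios are a description and no test was made of them. In the table for G the headers of the signal columns carry the letter of the other stage, so only its gene names were used. Signals of the stage-P SD genes at G were not analysed here, so nothing is said of how day length acted on them at that stage.

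A rice leaf is where day length is perceived, and its clock and photoreceptors set the expression of many genes at a given hour of the night. Besides the flowering regulators, leaf genes for transport, redox balance, organelle RNA metabolism and defence are known to follow day and night in plants. By the annotations, no member of the florigen pathway is among the stage-P SD genes, and the florigen gene Hd3a and its activator Ehd1 were listed at both stages.

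Values are the authors' array signals, which are linear intensities in arbitrary units, and the number of arrays limits their precision. Levels of different genes are not comparable, since each probe set binds its target differently. Means are given with the SD over the 3 repeats, the ratio is the mean P-SSD signal over the mean P-SLD signal, and the log2 difference is that of the mean log2 signals with its standard error (SE) over the 3 and 3 arrays. The labelled leaf tissue could not be checked against marker genes, because the whole-array table has no gene names. On that table the linear signals of repeats of 1 group correlated across probe sets of the array at 0.857 to 0.965, lowest for repeats 1 and 3 of P-SSD. On the array of P-SSD repeat 1 a rice version of the bioD 3' spike-in probe set read 143, against 1937 to 2639 on the other 11 arrays, while another bioD 3' probe set read 2274, against 1975 to 2607. In leaf RNA, fewer cells of a kind and less RNA per cell cannot be told apart.

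The ratios of the 74 genes ran from 2.02 to 13.1 with a median of 3.21, a median log2 ratio of 1.68. There were 33 genes under 3-fold, 24 from 3-fold to under 5-fold and 17 at 5-fold or more. Over the 25360 probe sets kept on the whole array, 3.45% were at least 2-fold and 0.221% at least 5-fold higher in SD. The ratio there was also that of the group means, but on values normalized in another way. The median log2 ratio of these probe sets was 0.04. The mean SD signals ran from 59.0 to 1857 and the mean LD signals from 10.8 to 847, and 24 genes had a mean LD signal under 50 (3 of them under 20). For these dim genes the size of the ratio depends on the background in the LD signal, which was not measured here. Every SD signal was above every LD signal in 63 of the 74 genes, against 4.78% of all probe sets kept and 29.4% of the 874 probe sets that were at least 2-fold higher in SD. The genes were listed from this same contrast, so nothing is read from these shares. The largest ratio was that of an unknown protein gene and the smallest lay just above the bound of 2, with 2.02 for LOC_Os01g31220, 2.02 for a cytochrome P450 gene and 2.02 for a small heat shock protein gene. The choice asked only for a ratio above 1, and the nearest entry outside it had an LD mean above 2 times its SD mean, since the table lists no gene between these bounds.

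**Figure D1:**
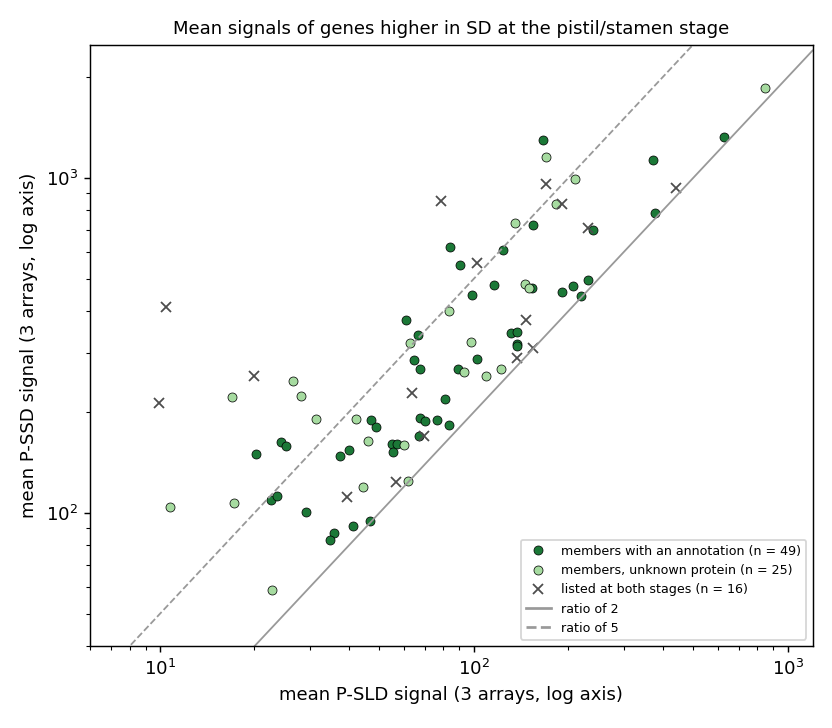
Mean P-SLD signal (horizontal, log axis) against mean P-SSD signal (vertical, log axis) of genes higher in SD at P, each point 1 entry and each mean over 3 arrays; the solid and dashed lines mark ratios of 2 and 5. The 49 annotated and 25 unknown entries lie from 2.02 to 13.1 times, and the 16 genes listed at both stages, shown as crosses, reach 39.2 times. The 8 genes listed at P only that the choice leaves aside, with ratios of up to 65.1, are not shown.

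An annotation naming a protein was given for 49 of the 74 genes and 25 were unknown proteins. By their annotations, 10 entries belong to membrane transport, 6 to RNA processing and translation, 5 to kinases, phosphatases and other signalling, 4 each to membrane trafficking, to sugar, lipid and nucleotide metabolism and to DNA repair, cell division and transposons, 3 each to redox proteins, defence and transcription factors and 2 to chaperones, while 5 have other annotations. Of the 89 genes listed at P only and higher in LD, 64 were annotated, 9 of them as transcription factors and 8 as signalling proteins. These groups were drawn up from the annotations by hand, and whether any is over-represented was not tested.

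**Figure D2:**
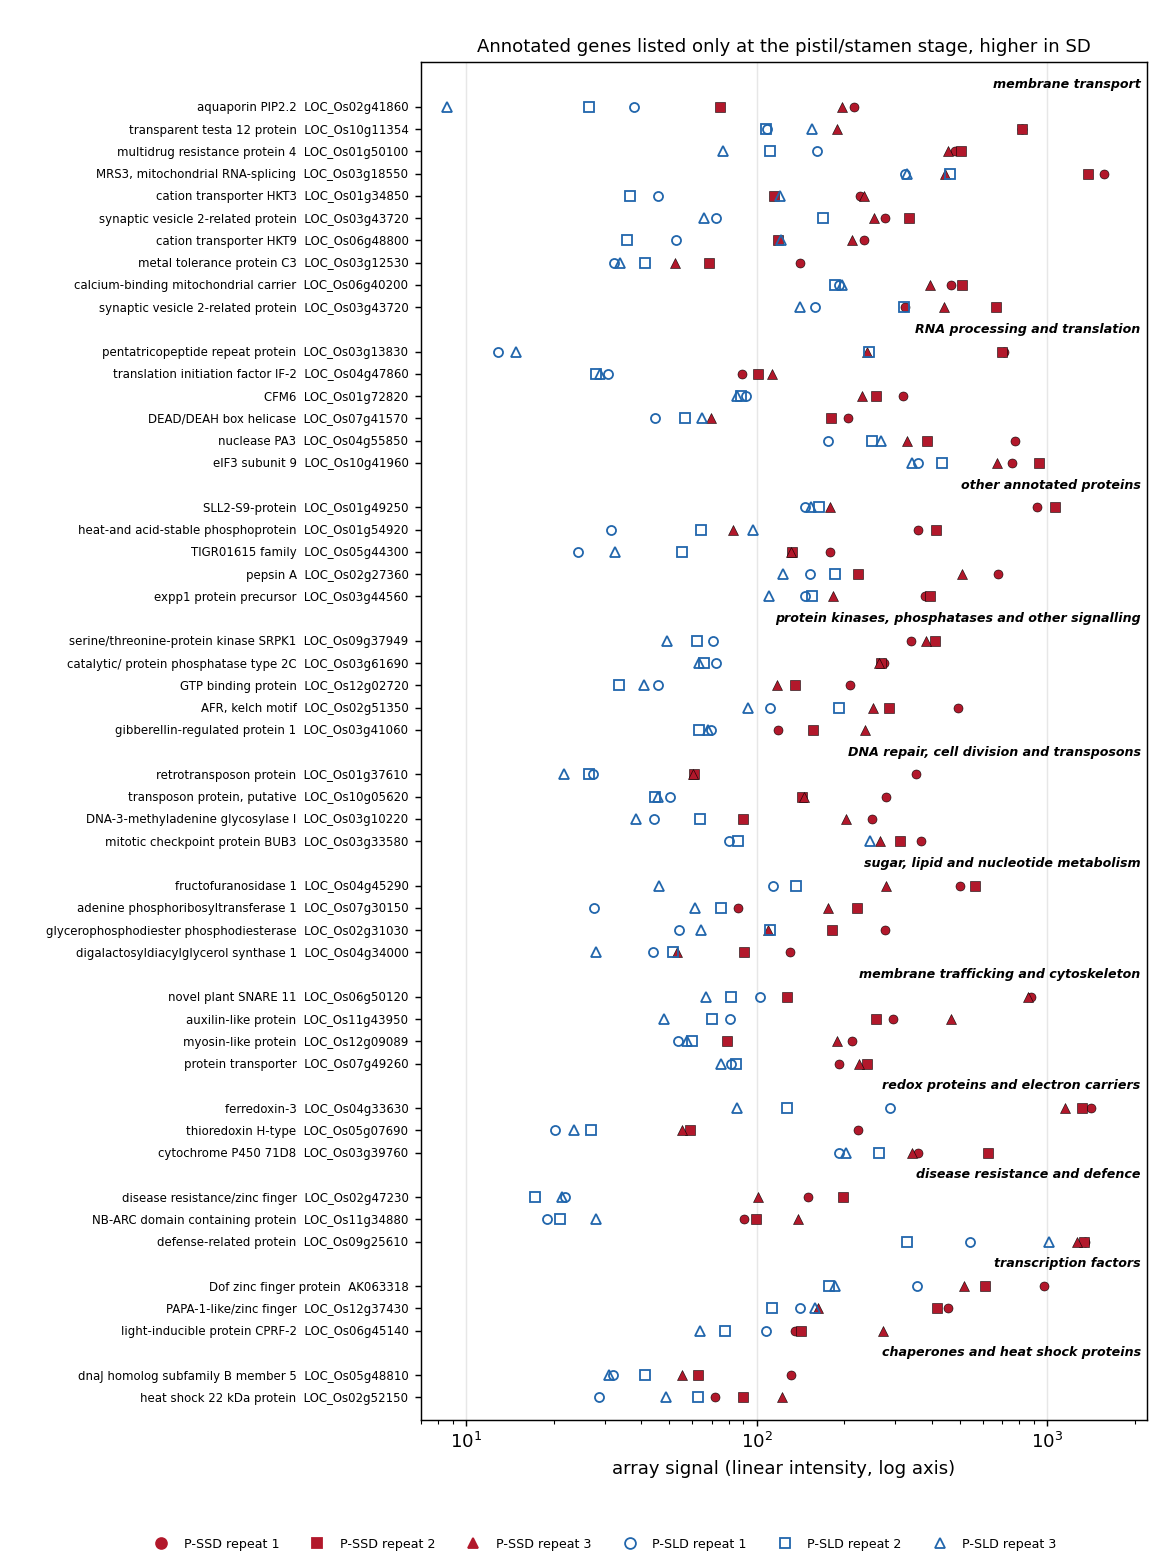
Signals of the 49 annotated entries on each of the 6 arrays (horizontal, linear intensity on a log axis), grouped by function and ordered by ratio within a group; filled red symbols are P-SSD and open blue symbols P-SLD, with a circle, square and triangle for repeats 1, 2 and 3. In ferredoxin-3 and protein phosphatase type 2C the colours are apart, while in HKT3 and the PPR gene they meet.

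Membrane transport was the largest annotated group. The gene of aquaporin PIP2.2 (LOC_Os02g41860), a water channel of the plasma membrane, had signals of 216, 74.5 and 197 in P-SSD and 37.7, 26.6 and 8.62 in P-SLD. All SD arrays were above all LD arrays, but repeat 2 was far below the other SD repeats, and the ratio was 6.69 (log2 difference 2.84, SE 0.81). The gene annotated as transparent testa 12 (LOC_Os10g11354), which in Arabidopsis carries flavonoids into the vacuole, had signals of 816, 822 and 189 in P-SSD and 109, 108 and 155 in P-SLD. Its repeat 3 in SD was barely above LD, so that the ratio of 4.91 came from repeats 1 and 2. The gene of multidrug resistance protein 4 (LOC_Os01g50100), an ABC-type transporter, had signals of 482, 505 and 455 in P-SSD and 161, 111 and 76.7 in P-SLD. Here all SD repeats were alike and apart from LD, at a ratio of 4.13 (log2 difference 2.11, SE 0.31). The gene annotated as MRS3 (LOC_Os03g18550), in yeast a carrier that brings iron into mitochondria, had signals of 1573, 1385 and 445 in P-SSD and 324, 462 and 331 in P-SLD. The groups overlapped, because repeat 3 in SD was within the LD range. A calcium-binding mitochondrial carrier gene (LOC_Os06g40200) had 458 ± 56.6 in P-SSD and 192 ± 4.82 in P-SLD (SD, n = 3 each), with a ratio of 2.39 and no overlap.

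The HKT proteins carry sodium and potassium ions across the plasma membrane. HKT3 (LOC_Os01g34850) had signals of 227, 115 and 234 in P-SSD and 45.8, 36.5 and 120.3 in P-SLD. HKT9 (LOC_Os06g48800) had signals of 234, 118 and 213 in P-SSD and 52.6, 35.7 and 121 in P-SLD. In both genes SD repeat 2 and LD repeat 3 came close and the groups overlapped, with ratios of 2.84 and 2.70. Taken from each gene's own mean, their log2 signals differed by at most 0.18 on any array, where the median of that largest gap over all 2701 pairs of entries was 1.34. HKT3 and HKT9 are close relatives in rice, so their probe sets may share transcripts and the pair may not be separate measurements. The metal tolerance protein C3 gene (LOC_Os03g12530), of a family that moves metal cations out of the cytosol, had signals of 141, 68.5 and 52.2 in P-SSD and 32.2, 41.3 and 33.9 in P-SLD. Taken in the same way, its log2 signals differed from those of the dnaJ gene LOC_Os05g48810 by at most 0.13, the closest pair of all by this measure, and in both repeat 1 stood above the other SD repeats. The gene for a synaptic vesicle 2-related protein (LOC_Os03g43720) had 2 entries, with 288 ± 41.6 in P-SSD and 102 ± 57.6 in P-SLD (SD, n = 3 each) in the first and 477 ± 174 in P-SSD and 207 ± 99.2 in P-SLD (SD, n = 3 each) in the second. Both entries had their highest LD signal in repeat 2 and their highest SD signal in repeat 2, and their ratios were 2.81 and 2.31. Of the 18 entries for transport listed at P, these 10 were higher in SD at P only, 2 were higher in SD at P and listed at both stages, 5 were higher in LD at P only and 1 was higher in LD and listed at both. Among those higher in LD was another aquaporin gene, of type TIP2.1, with 68.1 ± 6.58 in P-SSD and 139 ± 64.4 in P-SLD (SD, n = 3 each).

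**Figure D3:**
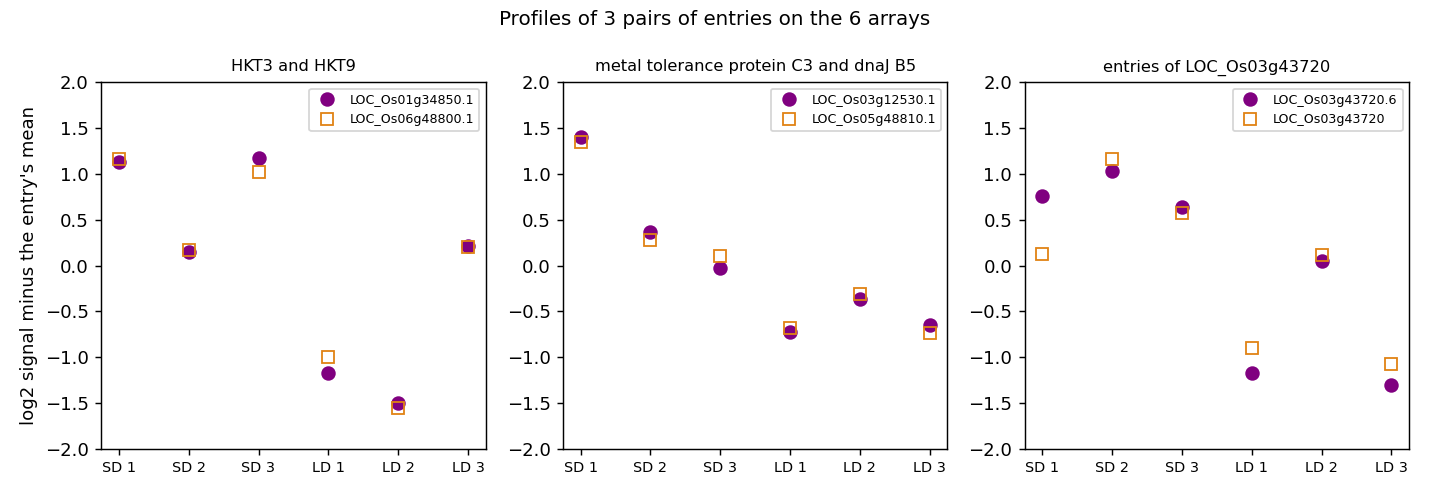
Log2 signal minus the entry's own mean log2 signal (vertical) of 3 pairs of entries on the 3 P-SSD and 3 P-SLD arrays, each point 1 array. HKT3 and HKT9 differ by at most 0.18 and the metal tolerance protein C3 and dnaJ genes by at most 0.13, while the entries of LOC_Os03g43720 are farthest apart in SD repeat 1.

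Among the redox proteins, ferredoxin-3 (LOC_Os04g33630), a small iron-sulphur protein that passes electrons to reducing enzymes, was the annotated gene with the largest ratio. It had signals of 1421, 1315 and 1152 in P-SSD and 288, 127 and 85.6 in P-SLD. The SD repeats lay close together and the groups were far apart, at a ratio of 7.77 (log2 difference 3.14, SE 0.52). An h-type thioredoxin gene (LOC_Os05g07690), whose product reduces disulphide bonds in the cytosol, had signals of 223, 58.8 and 55.4 in P-SSD and 20.2, 27.0 and 23.6 in P-SLD. Repeat 1 alone was far above, and the other SD repeats were still over 2 times the LD mean. The cytochrome P450 71D8 gene (LOC_Os03g39760) had signals of 359.6, 627 and 344 in P-SSD and 191, 263 and 204 in P-SLD. All its SD signals were above LD, and repeat 2 was the highest in both groups. Of the 12 redox entries listed at P, 3 are described here, 1 was left aside by the choice, 1 was higher in SD and listed at both stages and 7 were higher in LD.

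Of the signalling genes, none had its groups overlap and none had an SD repeat nearer to LD than to the other SD repeats. The same held for the 3 redox and the 3 defence genes. No overlap was seen in 63 of all 74 genes and in 29.4% of the 874 probe sets at least 2-fold higher in SD. The genes were listed from this same contrast, so nothing is read from these counts. The protein phosphatase type 2C gene (LOC_Os03g61690), of a family with members that restrain abscisic acid signalling, had signals of 275, 267 and 263 in P-SSD and 72.6, 65.8 and 63.2 in P-SLD. It was the most even of all 74 genes in SD, with a ratio of 3.99 (log2 difference 2.00, SE 0.06). The kinase gene annotated as SRPK1 (LOC_Os09g37949), in mammals a kinase of splicing factors, had signals of 339, 411 and 383 in P-SSD and 70.8, 62.1 and 49.1 in P-SLD. It too was even among repeats, and its ratio of 6.22 (log2 difference 2.65, SE 0.17) was the largest of this group. A GTP binding protein gene (LOC_Os12g02720) had signals of 210.3, 136 and 118 in P-SSD and 45.9, 33.6 and 40.9 in P-SLD. Its ratio was 3.85, with repeat 1 the highest in SD. The AFR gene (LOC_Os02g51350), which in Arabidopsis encodes an F-box protein with kelch repeats that acts in far-red light signalling through phytochrome A, had signals of 494, 285 and 252 in P-SSD and 111, 191 and 93.0 in P-SLD. Its ratio was 2.60 and LD repeat 2 came nearest to SD. The gibberellin-regulated protein 1 gene (LOC_Os03g41060) had 169.8 ± 59.7 in P-SSD and 66.9 ± 3.28 in P-SLD (SD, n = 3 each), a ratio of 2.54. Of the 15 signalling entries listed at P, 9 were higher in LD, 8 of them at P only.

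The transcription factor genes were few and their ratios small. A Dof zinc finger gene (AK063318), of a plant family of DNA-binding proteins, had signals of 974, 611 and 518 in P-SSD and 356, 178 and 186 in P-SLD. The groups did not overlap, and LD repeat 1 was the highest LD signal. The gene of CPRF-2 (LOC_Os06g45140), in parsley a bZIP protein that binds light-responsive promoters, had signals of 136, 142 and 273 in P-SSD and 108, 78.1 and 63.7 in P-SLD. Repeat 3 carried most of its ratio of 2.20, and without repeat 3 of both groups the ratio was 1.49. The gene with a PAPA-1-like region and a zinc finger (LOC_Os12g37430) had signals of 456, 419 and 163 in P-SSD and 141, 113 and 158 in P-SLD. Its SD repeat 3 was just above the highest LD signal, and the ratio was 2.52. Of the 20 transcription factor entries listed at P, these 3 were joined by 5 that were higher in SD and listed at both stages, and 12 were higher in LD.

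RNA processing and translation held 6 genes. The pentatricopeptide repeat gene LOC_Os03g13830, of a family that binds RNA in chloroplasts and mitochondria, had signals of 712, 699.5 and 239.7 in P-SSD and 12.9, 244 and 14.9 in P-SLD. LD repeat 2 was as high as SD repeat 3 and over 10 times the other LD repeats, so the mean LD signal was 90.5 ± 133 (SD, n = 3) and the groups overlapped. The translation initiation factor IF-2 gene (LOC_Os04g47860), whose product places the initiator tRNA on the ribosome in bacteria and organelles, had signals of 89.4, 101 and 113 in P-SSD and 30.8, 28.0 and 28.8 in P-SLD. Its ratio was 3.46 (log2 difference 1.78, SE 0.10). CFM6 (LOC_Os01g72820), named as a member of a family of CRM-domain proteins that act in the splicing of organelle introns, had signals of 318, 257 and 230.2 in P-SSD and 92.2, 88.6 and 85.5 in P-SLD. Both genes were even among repeats, and CFM6 had a ratio of 3.02 (log2 difference 1.58, SE 0.14). A DEAD/DEAH box RNA helicase gene (LOC_Os07g41570) had signals of 206, 180.3 and 69.6 in P-SSD and 44.6, 56.6 and 64.7 in P-SLD. SD repeat 3 was there just above LD, at a ratio of 2.75. The genes of nuclease PA3 (LOC_Os04g55850) and of eIF3 subunit 9 (LOC_Os10g41960), a scaffold of the translation initiation complex, had ratios of 2.15 and 2.08 without overlap. Of the 13 entries of this group listed at P, 6 were higher in LD, among them another pentatricopeptide repeat gene (LOC_Os03g16450), with 32.4 ± 32.1 in P-SSD and 191 ± 134 in P-SLD (SD, n = 3 each).

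Membrane trafficking was represented by the gene of NPSN11 (LOC_Os06g50120), in Arabidopsis a SNARE protein of the growing cell plate. It had signals of 883, 127 and 857 in P-SSD and 103, 81.6 and 67.1 in P-SLD. Repeat 2 in SD was 1.24 times the highest LD signal while the other SD repeats were far above it, so the ratio of 7.43 (log2 difference 2.47, SE 0.94) has a wide error. The auxilin-like gene (LOC_Os11g43950), whose relatives help to strip clathrin from vesicles, had signals of 295, 257 and 467 in P-SSD and 81.0, 70.1 and 48.0 in P-SLD. All repeats agreed in direction, at a ratio of 5.11 (log2 difference 2.34, SE 0.34). A myosin-like gene (LOC_Os12g09089) had signals of 213, 79.3 and 189 in P-SSD and 53.7, 59.7 and 57.6 in P-SLD. A protein transporter gene (LOC_Os07g49260) had signals of 193, 239 and 226 in P-SSD and 81.8, 85.0 and 75.6 in P-SLD. The groups were apart in both, but in the myosin-like gene repeat 2 was again the lowest in SD, and their ratios were 2.81 and 2.71.

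Of the defence genes, a disease resistance/zinc finger protein gene (LOC_Os02g47230) had signals of 150.2, 198 and 101 in P-SSD and 22.0, 17.3 and 21.4 in P-SLD. An NB-ARC gene (LOC_Os11g34880), which has the nucleotide-binding domain of plant resistance proteins, had signals of 90.8, 99.2 and 139 in P-SSD and 18.9, 21.0 and 28.1 in P-SLD. Both were dim in LD and apart from SD in every repeat, at ratios of 7.42 (log2 difference 2.85, SE 0.30) and 4.84 (log2 difference 2.27, SE 0.25). A bright defense-related gene (LOC_Os09g25610) had signals of 1354, 1345 and 1267 in P-SSD and 542, 329 and 1016 in P-SLD. Its SD repeats were nearly equal while LD repeat 3 came close to them, and the ratio was 2.10. In all, 7 entries of this kind were listed at P, 2 of them higher in LD and 2 left aside by the choice.

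Among genes of metabolism, fructofuranosidase 1 (LOC_Os04g45290), an invertase that splits sucrose, had signals of 501, 565 and 279.9 in P-SSD and 113, 136 and 46.1 in P-SLD. The groups were apart at a ratio of 4.55 (log2 difference 2.27, SE 0.58), and repeat 3 was the lowest in both. Adenine phosphoribosyltransferase 1 (LOC_Os07g30150), which salvages adenine, had signals of 85.9, 221 and 176 in P-SSD and 27.5, 75.4 and 61.4 in P-SLD. Repeat 1 was the lowest in both groups, and within each pair of the same number SD was 2.87 to 3.12 times LD. A glycerophosphodiester phosphodiesterase gene (LOC_Os02g31030) had signals of 276, 182 and 109.5 in P-SSD and 53.9, 111 and 64.3 in P-SLD. Digalactosyldiacylglycerol synthase 1 (LOC_Os04g34000), which makes a galactolipid of chloroplast membranes, had signals of 129.8, 90.4 and 53.2 in P-SSD and 44.0, 51.6 and 28.0 in P-SLD. SD repeat 3 lay nearer to LD in both of these, and in the first the groups overlapped, at ratios of 2.47 and 2.21. A gene of this kind higher in LD was a cell-wall invertase (LOC_Os09g08072), with 94.6 ± 35.4 in P-SSD and 198 ± 64.9 in P-SLD (SD, n = 3 each).

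The remaining annotated genes were mixed. BUB3 (LOC_Os03g33580), a protein of the mitotic checkpoint, had signals of 367, 313 and 266 in P-SSD and 80.4, 86.2 and 246 in P-SLD. LD repeat 3 reached nearly the SD level, which held the ratio at 2.29. DNA-3-methyladenine glycosylase I (LOC_Os03g10220), a base excision repair enzyme, had signals of 249.6, 89.8 and 202 in P-SSD and 44.2, 63.9 and 38.3 in P-SLD. Repeat 2 was its lowest SD signal, and the ratio was 3.70. A retrotransposon protein gene (LOC_Os01g37610) had signals of 354, 60.8 and 60.1 in P-SSD and 27.3, 26.5 and 21.7 in P-SLD. Its ratio of 6.28 (log2 difference 2.12, SE 0.86) owed most to repeat 1. A transposon protein gene (LOC_Os10g05620) had signals of 279, 144 and 146 in P-SSD and 50.3, 44.6 and 45.8 in P-SLD. Its log2 signals, taken from their own mean, differed from those of the GTP binding protein gene by at most 0.17 on any array. The dnaJ homolog B5 (LOC_Os05g48810), a partner of Hsp70 chaperones, had signals of 131, 62.6 and 55.2 in P-SSD and 32.1, 41.4 and 30.9 in P-SLD. The heat shock 22 kDa gene (LOC_Os02g52150) had signals of 71.8, 89.5 and 123 in P-SSD and 28.6, 62.8 and 48.8 in P-SLD. Both were dim genes with little room between the groups, the lowest SD signal of the second being 71.8 and its highest LD signal 62.8. The SLL2-S9 gene (LOC_Os01g49250) had signals of 920.3, 1067 and 179 in P-SSD and 147, 164 and 153 in P-SLD. The gene of a heat- and acid-stable phosphoprotein (LOC_Os01g54920) had signals of 359.6, 413 and 83.0 in P-SSD and 31.5, 64.3 and 97.1 in P-SLD. In both of these SD repeat 3 was close to the LD level, and in the second it was below LD repeat 3. A TIGR01615 family gene (LOC_Os05g44300) had signals of 179, 133 and 131 in P-SSD and 24.3, 55.4 and 32.4 in P-SLD. The gene of pepsin A (LOC_Os02g27360), an aspartic protease, had signals of 678, 223 and 507 in P-SSD and 152, 186 and 123 in P-SLD. These and an expp1 precursor gene (LOC_Os03g44560) had ratios of 3.95, 3.06 and 2.33 and no overlap.

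Of the unknown proteins, LOC_Os01g04250 had the largest ratio of all 74 genes. It had signals of 339, 51.5 and 275 in P-SSD and 14.6, 15.7 and 20.6 in P-SLD. SD repeat 2 was well below the other SD repeats but 2.5 times the highest LD signal, and the ratio was 13.1 (log2 difference 3.33, SE 0.87). NM_001050777 had signals of 70.7, 82.9 and 159 in P-SSD and 8.20, 7.81 and 16.3 in P-SLD. AK063153 had signals of 134, 372 and 235 in P-SSD and 27.9, 25.4 and 26.2 in P-SLD. Both were dim in LD and had no overlap, at ratios of 9.68 and 9.33. AK105827 had signals of 526, 72.6 and 71.5 in P-SSD and 25.2, 15.2 and 44.3 in P-SLD. Its ratio of 7.91 (log2 difference 2.44, SE 1.05) owed most to repeat 1. The other SD repeats were still over 2 times the LD mean of 28.2, and 1.6 times the highest LD signal. Of the 25 unknown protein genes 20 had no overlap between the groups. That compares with 63 of all 74 genes and 29.4% of the 874 probe sets at least 2-fold higher in SD. Nothing is read from these shares, since this same contrast chose the genes. The ratios of the other 21 unknown protein genes ran from 2.02 to 6.79. Among the brightest was LOC_Os12g05890 with 1151 ± 398 in P-SSD and 169.6 ± 44.3 in P-SLD (SD, n = 3 each). By its locus number this gene is next to LOC_Os12g05900 on chromosome 12, which was listed at G, and no other stage-P SD gene had a listed neighbour within 50 locus numbers, a step of 10 being 1 gene. The genes with a locus lay on all 12 chromosomes, most on chromosome 3 (14 entries of 26 listed at P) and chromosome 1 (10 of 25).

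In 30 of the 74 the lowest SD signal was nearer, on the log2 scale, to the mean of LD than to the mean of the other SD signals, and in 20 of these 30 it was repeat 3, in 7 repeat 2 and in 3 repeat 1. In 4 of the 20 genes with repeat 3, repeat 1 alone was over 2 times the next SD signal and repeats 2 and 3 were alike, which leaves 16 without that pattern. Repeat 3 was the lowest SD signal in 46 of the 74 genes (62.2%), repeat 1 in 15 and repeat 2 in 13. Among the 874 probe sets at least 2-fold higher in SD, repeat 3 was the lowest in 49.1%, repeat 2 in 32.8% and repeat 1 in 18.1%, and 77.9% had an SD repeat nearer to LD. Repeat 3 was thus often the lowest over the array as well, on values that were normalized in another way. The 874 were taken by ratio alone and the 74 from the authors' listing of this contrast. Nothing is therefore read from the gap between 30 of the 74 and 77.9%. In 14 genes repeats 1 and 2 of SD were within 1.3-fold of each other and repeat 3 was under 0.5 times their mean. The brightest of them was MRS3, and LOC_Os05g41620, an unknown protein gene, had signals of 1389, 1315 and 273 in P-SSD and 200.4, 189.9 and 238 in P-SLD. That gene, transparent testa 12 and SLL2-S9 had nearly the same profile, in which log2 signals taken from their own mean differed by at most 0.18 between the first 2 and 0.26 between LOC_Os05g41620 and SLL2-S9. Of the 11 genes whose groups overlapped, 8 had an SD repeat nearer to LD, which was repeat 3 in 7 of them. Both traits rest on the lowest SD signal, so they are not separate observations. The median ratio of the 20 genes with a low repeat 3 was 2.72 with all arrays and 3.74 with repeats 1 and 2 alone. These 20 were picked for a low SD repeat 3, so a rise without it is built in and nothing is read from it.

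Repeat 2 was the low one for NPSN11, pepsin A, HKT3, DNA-3-methyladenine glycosylase I, the myosin-like gene, LOC_Os01g04250 and LOC_Os07g46300. The brightest of these in SD were NPSN11 and pepsin A. HKT9, with nearly the same profile as HKT3, fell just outside this class, so the cut can part entries that hardly differ. Repeat 1 was the low one for adenine phosphoribosyltransferase 1, AK240849 and LOC_Os01g31220. AK240849 had signals of 220.4, 799 and 424 in P-SSD and 135, 215 and 87.9 in P-SLD. LOC_Os01g31220, the gene with the smallest ratio, had signals of 77.8, 136 and 159 in P-SSD and 71.3, 59.0 and 54.4 in P-SLD. In both, SD repeat 1 was only just above the highest LD signal. In 6 genes repeat 1 was over 2 times the next SD signal, while the other SD repeats were alike. These were AK105827 and the thioredoxin gene, and the 4 already counted with repeat 3, the retrotransposon, nuclease PA3, metal tolerance protein C3 and dnaJ B5 genes. No gene had repeat 2 or 3 alone in that place.

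**Figure D4:**
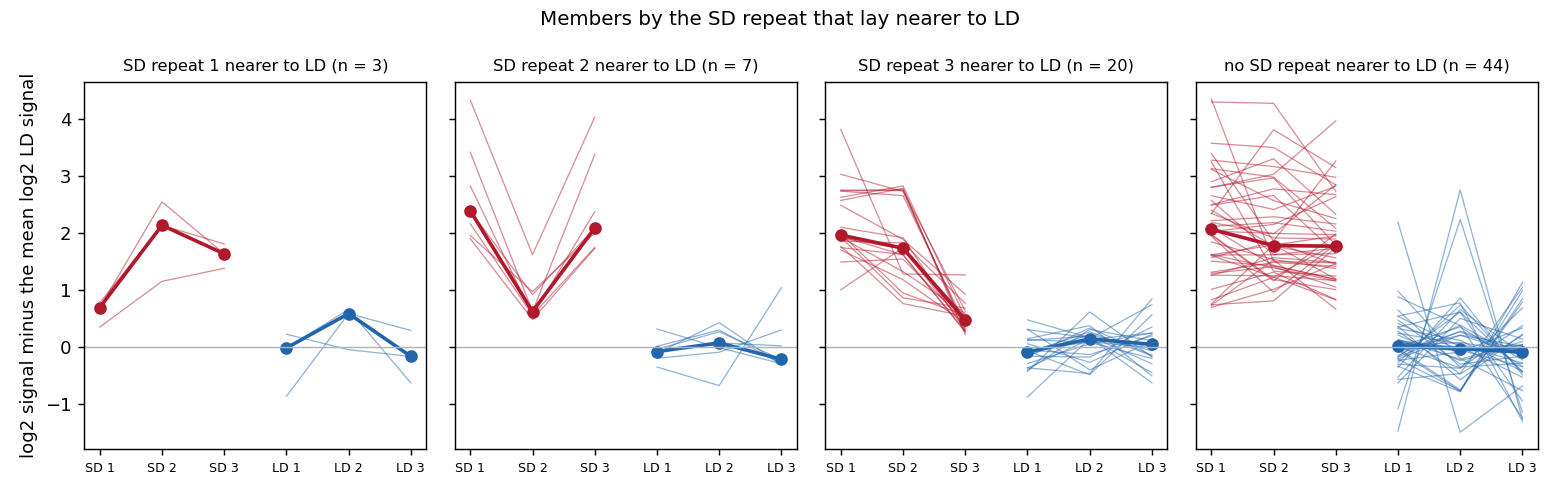
Log2 signal minus the gene's mean log2 LD signal (vertical) on the 6 arrays for the 3, 7 and 20 genes whose SD repeat 1, 2 or 3 lay nearer to LD and for the other 44; thin lines join the values of 1 gene and thick lines the medians, and the order of repeats has no meaning. The low repeat of SD sits close to the LD line in the first 3 panels.

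The LD side was steadier in these genes. The highest over the lowest LD signal had a median of 1.65 over the 74 genes, against 2.05 for SD, and in 17 genes the highest LD signal was nearer to SD than to the other LD signals (9 with repeat 2, 6 with repeat 3 and 2 with repeat 1). LOC_Os10g34270, the brightest of all, had signals of 2026, 1923 and 1622 in P-SSD and 564, 413 and 1565 in P-SLD. LD repeat 3 was there almost as high as SD, as it was in the defense-related gene and in BUB3. LOC_Os01g33710, an unknown protein gene, had signals of 861, 818 and 519 in P-SSD and 34.0, 339.9 and 32.5 in P-SLD. LD repeat 2 stood out in this gene as in the PPR gene LOC_Os03g13830. In the 89 genes listed at P only and higher in LD, the medians of these ranges were 2.01 for SD and 1.53 for LD, so that there too SD varied more. Of the genes listed at both stages, the 16 higher in SD had 2.23 and 1.67 and the 14 higher in LD had 2.09 and 1.55. The 8 genes left aside by the choice went the other way, with 1.35 for SD and 1.52 for LD. All these sets come from the same 6 arrays, and the part of single arrays in these ranges was not tested.

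At the other end, 7 genes had SD repeats within 1.41-fold of each other and LD repeats likewise. They were the genes of protein phosphatase type 2C, IF-2, CFM6, the protein transporter, the calcium-binding mitochondrial carrier and eIF3 subunit 9 and the unknown LOC_Os02g38029, with ratios from 2.08 to 3.99. The brightest of these, eIF3 subunit 9, had signals of 758, 934 and 670.4 in P-SSD and 360.5, 434 and 342 in P-SLD. LOC_Os02g38029 had signals of 455, 457 and 495 in P-SSD and 139, 179 and 133 in P-SLD. In fold, the gap between the groups of each was larger than the whole range within either group.

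Same-numbered SD and LD arrays could be set against each other, since their deviations from the group means went together. SD was above LD in all 3 pairs in 71 of the 74 genes, against 63% of the 874 probe sets at least 2-fold higher in SD. The 74 were listed from this same contrast and the 874 taken by ratio alone, so nothing is read from that gap. The exceptions were the phosphoprotein gene LOC_Os01g54920 and the unknown LOC_Os08g35939 and AK102311, each lower in SD in the pair of repeat 3. With repeat 1, 2 or 3 of both groups left out, the median log2 ratio was 1.55, 1.86 and 1.90, and 65, 69 and 74 genes had no overlap, a count that cannot go down when arrays are left out. Without P-SSD repeat 1, the array of the low spike-in reading, the median log2 ratio was 1.52.

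Compared with the 16 genes that were higher in SD at P and listed at both stages, the stage-P SD genes had a median log2 ratio of 1.68 against 1.73. Of the 16, 14 (87.5%) had no overlap, against 85.1% of the 74. The share of unknown proteins was 33.8% among the 74 and 12.5% (2 of 16) among those listed at both stages, and 28.1% among the genes listed at P only and higher in LD. No difference between these sets was tested, because the same contrast chose all of them.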

How the data were processed

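RNA from leaves of Nongken 58S was hybridised to 12 Affymetrix rice arrays, which were read with GCOS 1.4, per the submitters' processing notes. The authors normalized array intensities in dChip by an invariant set and took 5% of perfect match signals for background removal, per their methods. The values they deposited are linear intensities. They deposited a table of listed genes for each stage, with fold and P value columns of their own comparison, which were not used here, and a whole-array table, for which the normalization is not stated. The fold bounds of the listing were 2 and 0.5. By the paper's methods, genes past these bounds went on to a t-test and were kept at P under 0.05. Whether every entry met that P bound was not checked here. Each list holds more entries than the paper counts as differentially expressed at that stage. In the table named for G, the headers of the 6 signal columns carry the letter of the other stage, so only its gene names were used.

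Entries were chosen as given at the opening, from the mean linear signals, and the members and lists were chosen with earlier results of these data known. Genes named in full are the 4 largest ratios of each group and of the unknown proteins, the 3 brightest of each repeat pattern and the 3 smallest ratios. Genes outside that rule, such as the examples higher in LD, were chosen after their values were seen.

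For the shares over all probe sets, 187 control and reporter probe sets of 57381 were left out, log2 signals of 12 arrays were quantile normalized, and those whose signal reached the 60th percentile of an array on 3 or more arrays were kept (25360). Ratios were taken between group means of the normalized linear signals. limma 3.58.1 in R 4.3.3 (lmFit, eBayes with trend) counted probe sets at least 2-fold higher in SD with an unadjusted p under 0.05, which were 315 (1.24%), 2 of them with a Benjamini-Hochberg adjusted p under 0.05. That fit was tested on simulated data. The whole-array table could not be joined to the listed genes. Array medians ran from 6.92 to 9.18 intensity units. Deviations of same-numbered P-SSD and P-SLD arrays from their group means correlated across probe sets at 0.22, 0.29 and 0.51, each over 0.1, so the numbers were treated as pairs, from the data alone. The alternatives were other matches of names, pseudocounts, a signal minimum, other normalizations, each array left out and the replicate block.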

Additional observations from a re-analysis of the deposited data

How the results depend on the processing

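With each array left out in turn, 67 to 71 of the 74 genes kept a ratio of at least 2. The median log2 ratio was then 1.52 to 1.84. The genes without overlap numbered 63 to 72, a count that can only stay or go up with fewer arrays and so says nothing of single arrays. Matching names with their suffix gave 76 genes, and pseudocounts of 16 and 50 gave median log2 ratios of 1.54 and 1.18. A stricter demand, that the lowest SD signal be at least 2 times the highest LD signal, left 25 of 63 genes, and on linear signals 47 genes in place of 30 had an SD repeat nearer to LD. Probe sets at least 2-fold higher in SD with unadjusted p under 0.05 numbered 315, but 131 on signals as deposited, 196 on arrays centred on the median and 1353 with no filter on dim probe sets. With each array left out they were 238 to 657, with 657 without P-SSD repeat 3 and 503 without P-SLD repeat 2. The cause was not tested.

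With the replicate block, pairing arrays of the same number, 71 genes were higher in SD in all pairs, the middle paired log2 ratio had a median of 1.85, and 394 probe sets were counted, against 240 without the block on the 6 P arrays. Chosen after seeing the data, leaving out repeat 1, 2 or 3 of both groups kept 63, 68 and 70 genes at a ratio of at least 2, with median log2 ratios of 1.55, 1.86 and 1.90, and counting each locus once gave 1.72. With 3 arrays a group and many dim LD signals, the sizes of the larger ratios are poorly bounded. Probe sets of close relatives may share transcripts.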
